A study of Mus musculus with 2 samples.

Results

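Toll-like receptors (TLRs) are membrane proteins with which macrophages and other cells of innate immunity recognise molecules of microbes and of damaged cells. TLR2, with TLR1 or TLR6 as its partner, binds bacterial lipoproteins at the cell surface, TLR4 binds lipopolysaccharide with the help of CD14 and MD-2, and TLR5 binds flagellin. TLR3, TLR7, TLR8, TLR9 and TLR13 sit in endosomes and bind nucleic acids: double-stranded RNA for TLR3, single-stranded RNA for TLR7 and TLR8, unmethylated CpG DNA for TLR9 and bacterial ribosomal RNA for TLR13. Ligand binding brings the intracellular TIR domains together, and adaptors such as MyD88 and TRIF pass the signal through kinases to NF-κB and interferon regulatory factors.

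The 10 TLR genes Tlr1 to Tlr9 and Tlr13 were taken by their symbols from the 22886 genes of 2 RNA sequencing libraries, and each symbol stood on a single line. According to the labels, the libraries were made from polyA RNA of sorted aerobic cells of a subcutaneous LLC tumor (Lewis lung carcinoma) in wild type C57BL/6 mice that received vehicle or clodronate. Clodronate is a drug that depletes phagocytes when it is given in liposomes. Each condition was a single library, so differences come without replicates and without p-values, and the injection cannot be told apart from the animal, the sort or the library. The labels give no age, dose, time or sorting gate and do not say how many animals were pooled, and a growth protocol among them names EML cells, a blood progenitor line, against all the other labels.

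Levels are in RPKM, read numbers scaled by transcript length and by depth, which allows genes to be compared with each other. Low RPKM values fell on steps of whole reads once multiplied by the length of the transcript less 200 nt. Of 444 such values in the vehicle library 76.8% and of 836 in the clodronate library 76.2% lay within 0.1 of a whole number of reads from 1 to 6. The size of 1 step was set to the most frequent low value of the same library. Values of 1 read therefore lie near a whole number by construction, and these shares are no independent check of the steps. These steps correspond to about 13800000 reads for vehicle and 11200000 reads for clodronate, and read numbers below are estimates on this basis. The intervals given are 95% intervals from these reads. They cover counting error only, and compare 2 libraries and not the conditions.

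The labelled cells were checked against marker genes. All 10 macrophage markers were present in both libraries, with a summed level of 23458 RPKM with vehicle and 22418 RPKM with clodronate. Of these sums, Lyz2 made up 10534 and 11189 RPKM. Single markers went both ways, 6 higher and 4 lower with clodronate. They ran from C1qc, with 3984 and 2043 RPKM, to Mrc1, with 174 and 289 RPKM. B cells and plasmacytoid dendritic cells are known for high TLR7 and TLR9. Markers of B cells summed to 8.08 and 4.62 RPKM, of which Cd22 made up 5.08 and 2.88 RPKM, and Pax5 was listed at 0 in both. Markers of plasmacytoid dendritic cells summed to 1.65 and 2.75 RPKM, of which Cox6a2 made up 0 and 2.34 RPKM. The others detected were lower with clodronate, Spib with 1.12 and 0.275 RPKM and Ccr9 with 0.458 and 0.129 RPKM. Siglech and Pacsin1 were near 0 with vehicle and listed at 0 with clodronate. Of the 6 markers of conventional dendritic cells 3 averaged 1 RPKM or more, and of these Cd209a had 1.25 and 8.68 RPKM, Zbtb46 1.05 and 1.09 RPKM and Ccr7 3.36 and 2.31 RPKM. Markers of blood progenitors, the kind of cell that the EML line represents, summed to 6.81 and 5.46 RPKM, with Gata1 listed at 0 in both. Epithelial markers summed to 12.8 and 11.0 RPKM, with Epcam listed at 0 in both. The labels speak of tumor cells, and by these lists the RNA held far more of macrophage than of epithelial genes. No list was specific to LLC cells, and summed levels of different genes do not give shares of cells. The share of tumor cells was therefore not tested. Monocyte markers summed to 277 and 415 RPKM, and fibroblast markers to 154 and 75.1 RPKM. Of 7 neutrophil markers found, 5 had 0 RPKM with either injection, and the list summed to 16.7 and 25.8 RPKM. S100a8 made up 12.7 and 23.1 RPKM of these sums, and Cxcr2 had 4.06 and 2.69 RPKM. T and NK cell markers summed to 11.1 and 8.85 RPKM, of which Cd4 made up 10.3 and 7.72 RPKM, with Cd3e and Ncr1 listed at 0 in both. Endothelial markers summed to 3.34 and 7.84 RPKM. The part of all these cells in the levels and differences of the TLR genes was not tested. In such bulk samples, fewer cells of a type and less RNA per cell cannot be told apart.

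Tlr2 stood far above the other receptors and was the member with the largest difference. On its 3014 nt transcript, with a single coding exon, it stood at 460 RPKM with vehicle and at 200.2 RPKM with clodronate. The clodronate value was 2.30-fold lower, with a counting interval of 2.23 to 2.37 from about 17833 and 6329 reads. The gene lies on chromosome 3 from 83640194 to 83645530 in build mm9, which is the build of all positions taken from the files. On the log2 scale with 1 RPKM added, used for all log2 ratios, Tlr2 had a ratio of -1.20, and 4.60% of the 10982 genes averaging 1 RPKM or more had a lower ratio. Of the 823 genes that averaged 100 RPKM or more, 17 had a lower ratio than Tlr2. In that set 4.13% were at least 2-fold lower with clodronate, as Tlr2 was, and 4.62% at least 2-fold higher.

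The 250 bases before the start of Tlr2, Tlr3 and Tlr13 are shown to set the promoter of the receptor that differed most beside those of 2 receptors whose log2 ratios were small (0.12 and -0.04). They are RefSeq sequences of build GRCm38.p6, read 5′ to 3′ on the strand of the gene. Capitals mark matches to the NF-κB decamer and to the GC box GGGCGG on either strand.
Tlr2 promoter, chr3:83841609-83841858, minus strand: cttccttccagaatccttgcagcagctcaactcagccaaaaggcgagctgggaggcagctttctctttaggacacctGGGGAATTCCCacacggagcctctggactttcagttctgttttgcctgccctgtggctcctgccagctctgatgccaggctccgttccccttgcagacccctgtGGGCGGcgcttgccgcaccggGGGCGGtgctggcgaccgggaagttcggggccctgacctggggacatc
Tlr3 promoter, chr8:45410381-45410630, minus strand: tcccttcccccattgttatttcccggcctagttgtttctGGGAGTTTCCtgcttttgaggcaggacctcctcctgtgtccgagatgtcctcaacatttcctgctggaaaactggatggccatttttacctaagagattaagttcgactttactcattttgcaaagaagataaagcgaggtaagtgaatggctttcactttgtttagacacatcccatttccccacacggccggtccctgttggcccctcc
Tlr13 promoter, chrX:106143025-106143274, plus strand: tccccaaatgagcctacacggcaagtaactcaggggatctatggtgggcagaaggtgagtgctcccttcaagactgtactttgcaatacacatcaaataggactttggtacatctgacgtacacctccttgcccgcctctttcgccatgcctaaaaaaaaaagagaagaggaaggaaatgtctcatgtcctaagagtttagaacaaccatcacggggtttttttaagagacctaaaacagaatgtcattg

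The Tlr2 window held 2 overlapping NF-κB matches, at positions -173 to -164 and -172 to -163 from the start, and 2 GC boxes. The Tlr3 window held 1 NF-κB match, and the Tlr13 window held neither motif. The NF-κB decamer was found in 3.90% and the GC box in 32.7% of 32851 windows of the same length over all genes. The table held windows for 8 of the 10 members, 10 windows in all, and among the other members the GC box was found for Tlr5 with 2 matches. Matches to the ISRE core GAAANNGAAA, present in 2.98% of all windows, were found only in 1 of the 2 windows of Tlr6. The GAS motif TTCNNNGAA, present in 7.02%, was found in 1 window of Tlr1 and in that of Tlr8, and the AP-1 motif TGANTCA, present in 6.75%, in that of Tlr9. The letters GAGGAA, present in 23.3%, were found for Tlr1, Tlr8, Tlr9 and Tlr13. GC content differed widely, with 62.8% in the Tlr2 window, 31.2% in that of Tlr8 and a median of 52.4% over all windows. These matches describe the letters of the windows, and no binding was measured here.

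The genes of the partners of TLR2 were much lower in RNA level than Tlr2 in both libraries, and no protein was measured. Tlr1 (chromosome 5, 65316073 to 65323938) stood at 27.9 RPKM with vehicle and at 23.1 RPKM with clodronate, a 1.21-fold lower value with an interval of 1.09 to 1.33. Tlr6 (chromosome 5, 65344334 to 65351273) was the lowest member in each library, with 2.79 RPKM and 3.97 RPKM from about 133 and 155 reads. Its clodronate value was 1.42-fold higher, with an interval of 1.13 to 1.81. The level of Tlr2 was 16.5 times that of Tlr1 in the vehicle and 8.66 times in the clodronate library, and it was 165 times and 50.5 times that of Tlr6.

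Tlr1 and Tlr6 are neighbours with partly identical coding sequence, so that their levels are uncertain where reads fall on the shared part. Of the 50-base words of the Tlr1 transcript 16.6% also occurred in Tlr6, and of those of Tlr6 12.5% also occurred in Tlr1. How such reads were divided is not given in the sources used here, and its part in the value of the lower gene, Tlr6, was not tested. Their longest common run of 229 bases is shown because a read within it fits both genes. It lies within the coding sequence, in exon 3 of Tlr1 (GRCm38, chr5:64925537-64925765, minus strand) and in exon 2 of Tlr6 (chr5:64953828-64954056, minus strand).
Shared run of Tlr1 and Tlr6: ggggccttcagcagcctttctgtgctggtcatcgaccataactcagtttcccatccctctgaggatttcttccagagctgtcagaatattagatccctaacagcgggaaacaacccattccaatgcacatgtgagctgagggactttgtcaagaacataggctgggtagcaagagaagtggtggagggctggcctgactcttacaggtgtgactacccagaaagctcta

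Of the other members, Tlr3 shared 1.56% of its 50-base words with the gene model Gm45542, and the remaining 7 members shared none with any other gene of the GENCODE M21 transcripts. Tlr7 and Tlr8, also neighbours, were among these 7.

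The other receptors of the cell surface differed little between the libraries. Tlr4 (chromosome 4, 66488845 to 66503830), the lipopolysaccharide receptor, stood at 15.1 RPKM with vehicle and at 14.2 RPKM with clodronate. The ratio of clodronate to vehicle was 0.939, with an interval from 0.845 to 1.04 that held 1. Tlr5 (chromosome 1, 184884919 to 184906175) had 8.14 RPKM and 9.61 RPKM, a 1.18-fold higher value with an interval of 1.01 to 1.38. The level of Tlr2 was 30.5 times that of Tlr4 in the vehicle and 14.1 times in the clodronate library.

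Among the endosomal receptors, Tlr13 and Tlr8 were highest. Tlr13 (chromosome X, 103338614 to 103355832) stood at 53.0 RPKM with vehicle and at 51.5 RPKM with clodronate, a ratio of 0.972 with an interval of 0.919 to 1.03. Tlr8 (chromosome X, 163680664 to 163701720) had 51.3 RPKM and 36.9 RPKM, a 1.39-fold lower value with an interval of 1.30 to 1.49. Its neighbour Tlr7 (chromosome X, 163742863 to 163768460) had 36.9 RPKM and 33.5 RPKM, 1.10-fold lower with an interval of 1.03 to 1.18. Tlr8 was thus 1.39 times the level of Tlr7 in the vehicle library and 1.10 times in the clodronate library, where their counting intervals overlapped.

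The receptors for DNA and double-stranded RNA were lower in level and slightly higher in the clodronate library. Tlr9 (chromosome 9, 106124929 to 106129207) stood at 12.7 RPKM with vehicle and at 15.0 RPKM with clodronate, 1.18-fold higher with an interval of 1.05 to 1.33. Tlr3 (chromosome 8, 46481019 to 46495893) had 7.92 RPKM and 8.69 RPKM, a ratio of 1.10 with an interval of 0.960 to 1.26. After a correction of all ratios for GC content and length, the log2 ratio of Tlr9, whose transcript has the highest GC content of the members at 56.2%, moved from 0.22 to -0.019. The small negative log2 ratios of Tlr4, Tlr7 and Tlr13 became 0.085, 0.071 and 0.047 under the same correction, while that of Tlr2 was -1.24.

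**Figure D1:**
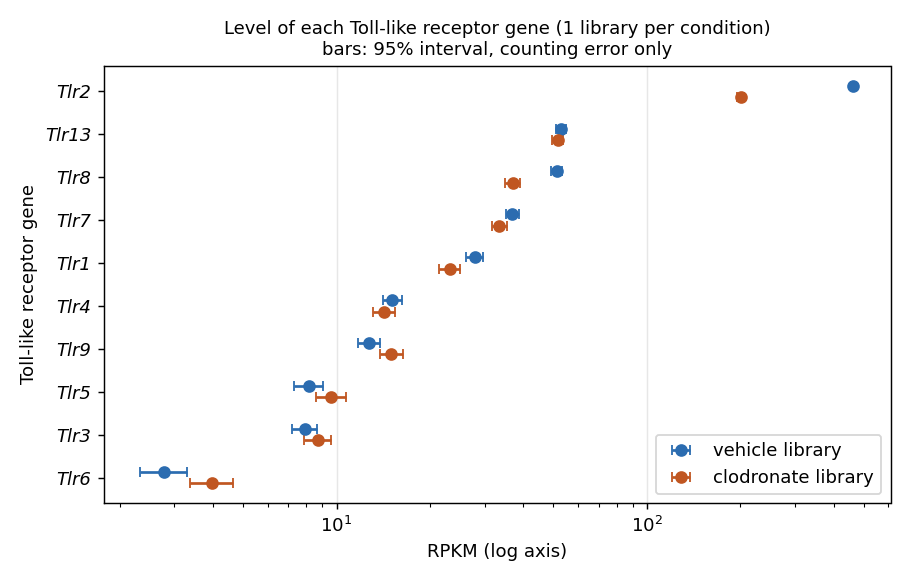
RPKM of each TLR gene on a log axis in the vehicle and the clodronate library, 1 library each, with bars for the 95% counting interval. Tlr2 lies apart from all other members in both libraries, at 460 RPKM and 200.2 RPKM, and Tlr6 is lowest at 2.79 RPKM and 3.97 RPKM.

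The order of the levels was nearly the same in both libraries. It ran in the vehicle library from Tlr2 over Tlr13, Tlr8, Tlr7, Tlr1, Tlr4, Tlr9, Tlr5 and Tlr3 to Tlr6, and in the clodronate library Tlr9 and Tlr4 changed places. Counting intervals of neighbours overlapped for Tlr13 and Tlr8 and for Tlr5 and Tlr3 in the vehicle library. In the clodronate library they overlapped for Tlr8 and Tlr7, for Tlr9 and Tlr4 and for Tlr5 and Tlr3. Tlr2 was above 98.2% of the genes averaging 1 RPKM or more in the vehicle library, and Tlr6 above 16.7%.

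The summed level of the 10 genes was 676 RPKM with vehicle and 397 RPKM with clodronate, 1.70-fold lower. Tlr2 made up 68.1% of the sum in the vehicle and 50.5% in the clodronate library. Without Tlr2, the other 9 genes summed to 216 and 197 RPKM, a 1.10-fold lower value. The 5 surface receptors summed to 514 and 251 RPKM, and to 53.9 and 50.9 RPKM without Tlr2. The 5 endosomal receptors summed to 162 and 146 RPKM. The difference in the sum thus lay for the most part in Tlr2.

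**Figure D2:**
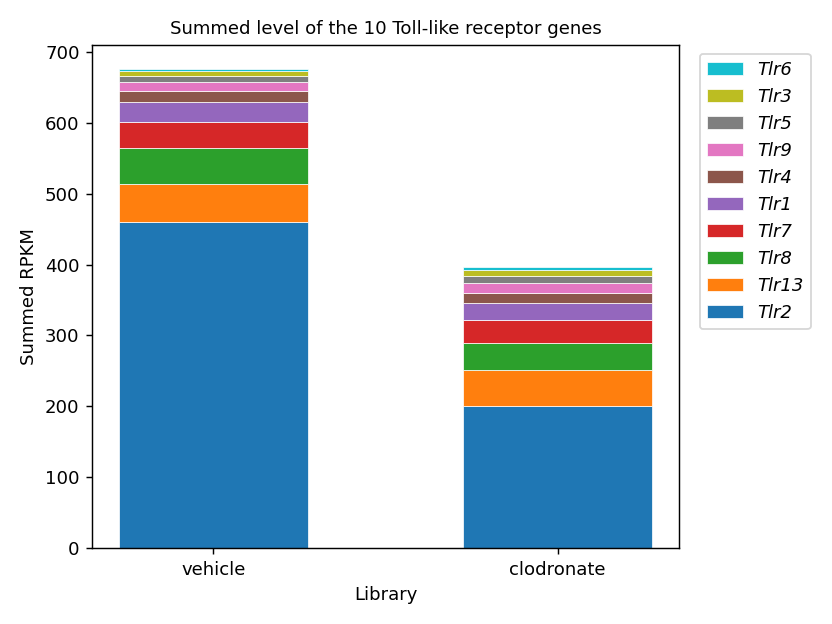
Summed RPKM of the 10 TLR genes in each library, stacked by gene from Tlr2 at the bottom to Tlr6 at the top. The Tlr2 segment is 68.1% of the vehicle bar and 50.5% of the clodronate bar, and the other 9 genes sum to 216 and 197 RPKM.

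None of the 10 members, all of which averaged 1 RPKM or more, was 3-fold higher or 3-fold lower in the clodronate library, where 2.86% of all genes tested were higher and 2.32% lower by this measure. At 2-fold, Tlr2 was the only member lower and no member was higher, against 6.77% and 6.95% of all genes. Of the 10 log2 ratios 6 were negative and 4 positive, with a median of -0.062, where all genes had a median of 0.019. The median was -0.084 for the surface and -0.041 for the endosomal receptors, and both turned positive under the correction for GC content and length, as the closing part gives. Without Tlr2 the ratios ran from -0.46 for Tlr8 to 0.39 for Tlr6, a range that held 53.7% of all genes. The counting interval left out a ratio of 1 for 4 members on the lower side and 3 on the higher side, so that most of these small differences were larger than counting error, while the spread between replicates is not known.

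**Figure D3:**
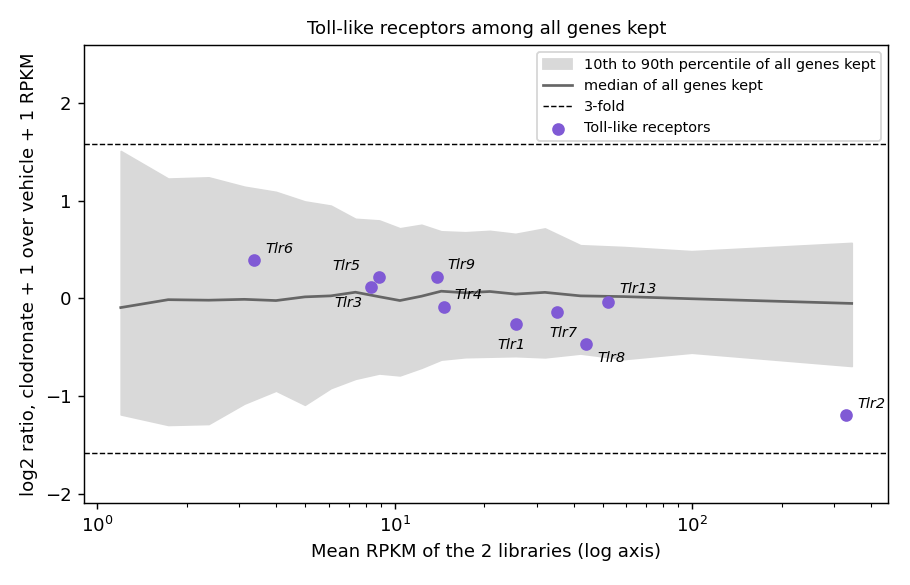
Log2 ratio of clodronate over vehicle against the mean RPKM (log axis) for the 10 TLR genes, over a band between the outer deciles of all genes of like level and a line at their median. Tlr2, at -1.20, lies below the band and above the dashed 3-fold line, and the other 9 genes lie between -0.46 and 0.39, within the band.

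The genes that work with the receptors were examined in lists called pathway lists here. These lists also held cytosolic sensors, other receptors with a TIR domain, and Tlr11 and Tlr12. The 11 lists held 107 genes, of which 106 were found and 97 averaged 1 RPKM or more. Of these 97, 2 were 3-fold higher or more with clodronate and 1 was 3-fold lower or more. This was no larger a share than the 2.86% and 2.32% over all genes. The 2 higher genes were Irf7 and the cytosolic sensor Zbp1. The median log2 ratio of the 97 genes was 0.10, with the cytosolic sensors, whose own median was 0.48, included.

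Of the surface co-receptors, 4 of 6 were lower with clodronate, and the median log2 ratio was -0.34. Ly96, which encodes the MD-2 subunit of the TLR4 complex, stood at 70.7 RPKM with vehicle and at 28.5 RPKM with clodronate, 2.48-fold lower with an interval of 1.98 to 3.12. Cd14, which hands lipopolysaccharide and lipoproteins to TLR4 and TLR2, had 1560 RPKM and 1045 RPKM. The level of Ly96 fell from 4.68 times to 2.01 times that of Tlr4. Cd180, a relative of TLR4 that lacks a TIR domain, was 1.56-fold higher with 39.0 RPKM and 61.0 RPKM, and its partner Ly86 had 375 RPKM and 285 RPKM. No gene of this list passed 3-fold, and Tril was listed at 0 in both.

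The next list held genes for chaperones and traffic of the receptors and for nucleases that degrade nucleic acids. Of its 12 genes 10 were higher and 2 lower, with a median of 0.14 and none at 3-fold. The ratios ran from Rnaset2b, an RNase gene that was 1.69-fold lower with an interval of 1.47 to 1.94, to Cnpy4, a relative of the TLR chaperone gene Cnpy3 that was 1.81-fold higher with an interval of 1.54 to 2.14. Unc93b1, the chaperone that endosomal TLRs need to leave the endoplasmic reticulum, stood at 341 RPKM with vehicle and at 377 RPKM with clodronate. Pld4, an endosomal exonuclease, had 453 RPKM and 465 RPKM. Among the 5 proteases that cleave endosomal TLRs, the median was 0.13, and Ctss had 2357 RPKM and 1420 RPKM, whereas Lgmn had 1005 RPKM and 1355 RPKM.

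Of the 6 adaptors 5 averaged 1 RPKM or more, and of these 4 were higher and 1 lower, with a median of 0.37. Myd88, used by all members but Tlr3, stood at 31.6 RPKM with vehicle and at 32.3 RPKM with clodronate. Ticam1, the gene of TRIF, the adaptor of TLR3 and of internalised TLR4, had 7.02 RPKM and 12.2 RPKM. Ticam2, the gene of TRAM, which links TLR4 to TRIF, had 14.1 RPKM and 12.6 RPKM, and Sarm1 was listed at 0 in both.

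In the list of kinases and ubiquitin ligases, 11 of 18 genes were lower and 7 higher, with a median of -0.20. Tbk1, the kinase that activates IRF3, stood at 49.2 RPKM with vehicle and at 28.3 RPKM with clodronate, and its relative Ikbke had 37.8 RPKM and 58.4 RPKM. Traf6, the ubiquitin ligase downstream of the IRAK kinases, had 17.5 RPKM and 18.9 RPKM. Irak1 was the 1 pathway gene at least 3-fold lower, with 1054 RPKM and 47.1 RPKM. Its locus in the files spans 10023 bases, as many as Irak1 together with the microRNA gene Mir718 in RefSeq of GRCm38, where Irak1 alone spans 10008. A short transcript in a locus can raise its RPKM out of proportion to its reads, and its part in this value was not tested. Without Irak1 the median of the list was -0.19.

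Of the 8 transcription factors, Irf7 was at least 3-fold higher, with 20.1 RPKM with vehicle and 107 RPKM with clodronate. It is both a target of interferon and a factor downstream of TLR7 and TLR9. The others had log2 ratios between -0.25 and 0.19, among them Rela with 67.1 RPKM and 72.2 RPKM and Irf5, a factor downstream of MyD88, with 76.7 RPKM and 87.8 RPKM. Of the 15 inhibitors 10 were higher and 5 lower, with a median of 0.16 and none at 3-fold on the log2 ratio with 1 RPKM added. Socs1, an inhibitor that cytokines induce, had 0.714 RPKM and 3.15 RPKM, which without the added RPKM was 4.42-fold higher with an interval of 2.84 to 7.13. Tollip had 25.8 RPKM and 45.5 RPKM, Tnip1, a partner of A20, had 25.7 RPKM and 49.1 RPKM, and Tnfaip3, the gene of A20, had 216 RPKM and 241 RPKM. Irak3, the inhibitory IRAK of macrophages, had 30.0 RPKM and 28.3 RPKM.

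Genes that TLR ligands induce in macrophages went in both directions, with 7 of 15 higher, 8 lower, none at 3-fold on the log2 ratio and a median of -0.095. Il1b stood at 278 RPKM with vehicle and at 97.2 RPKM with clodronate, 2.86-fold lower with an interval of 2.69 to 3.05. Il10, an inhibitory cytokine, had 17.2 RPKM and 42.8 RPKM, 2.49-fold higher with an interval of 2.15 to 2.91. Tnf had 92.9 RPKM and 84.3 RPKM and Cxcl1 539 RPKM and 652 RPKM. Il6 had 4.93 RPKM and 1.81 RPKM, and Ifnb1 was listed at 0 in both.

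**Figure D4:**
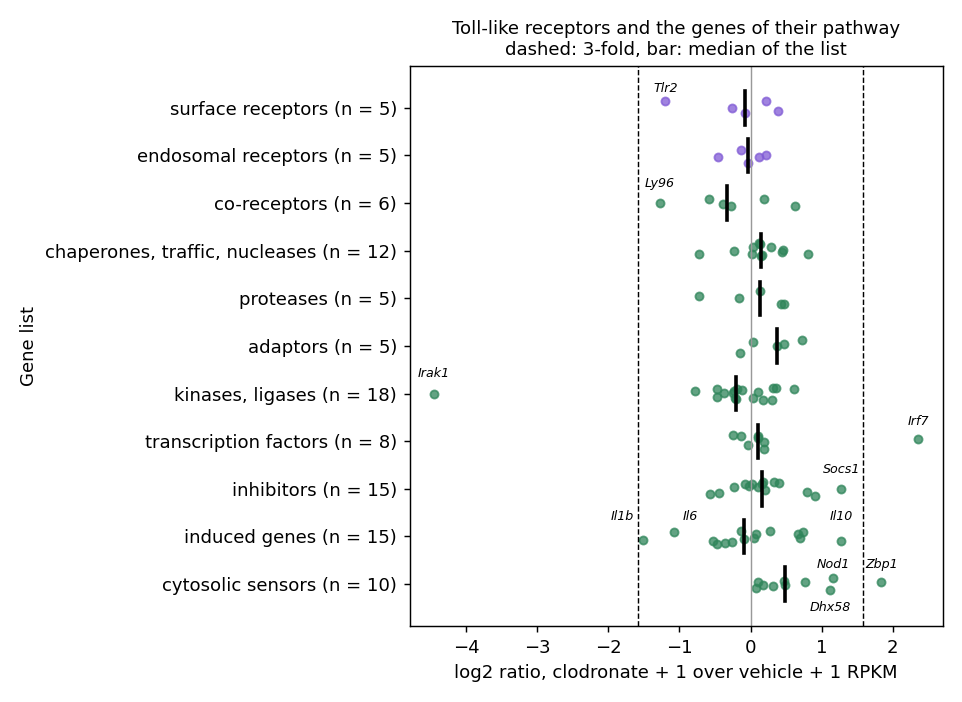
Log2 ratio of clodronate over vehicle for the TLR genes (purple) and for the genes of 9 pathway lists (green), 1 point per gene averaging 1 RPKM or more, a bar at each list's median and dashed lines at 3-fold. Most points lie within the dashed lines, and Irak1 at -4.45 on the left and Irf7 at 2.36 and Zbp1 at 1.84 on the right lie outside.

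The 2 mouse TLR genes outside the members were at or near 0. Tlr12 was listed at 0 in both libraries, and Tlr11 was listed at 0 with vehicle and at 0.148 RPKM with clodronate.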

How the data were processed

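The authors deposited 1 text file per library with RPKM values for 23170 loci. The submitters' processing notes name CASAVA 1.8.2, TopHat2 2.0.9, Bowtie 0.12.9, Cufflinks 2.2.1, Cuffdiff and the build mm9, with no settings. No model for counts was used to test differences, since RPKM are normalized values. Only the counting intervals rest on estimated reads. Lines of the same symbol were summed. In all, 26 symbols that were missing or had the form of a number or a date were replaced by their RefSeq accessions. A log2 ratio is that of the 2 libraries, clodronate over vehicle, after 1 RPKM was added to each, and is smaller than the true change for low genes. The 10982 genes that averaged 1 RPKM or more were kept.

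Reads behind a value were estimated as RPKM times transcript length less 200 nt, divided by the most frequent low value among loci with 1 transcript longer than 1500 nt. Intervals of a level are exact Poisson and those of a ratio exact (Clopper-Pearson) from the split of the reads, at 95%. Lengths, GC content and exons came from GENCODE M21 (GRCm38) through RefSeq accessions. Locus starts, counted from 0 in the files, were raised by 1. The members and lists were chosen with earlier results of these data known. The text could name each member and each listed gene. Rnaset2a and Ly6g were found under no symbol, and Adgre1 was found as Emr1. The steps were tested on simulated data, made with the same 200 nt for the reads and with counting error only for the intervals. Such a test cannot show that these settings suit the real values. Python 3.11.15, numpy 2.4.6, pandas 2.3.3, scipy 1.17.1 and matplotlib 3.10.9 were used.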

Additional observations from a re-analysis of the deposited data

How the results depend on the processing

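The ratios were recomputed after adding 0.1 RPKM in place of 1, without the filter, with a filter at 5 RPKM, after centring, after upper-quartile scaling, with only the highest line of a repeated symbol, with a correction for GC content and length (medians of 10 bins of each subtracted, for the 98.7% of genes with a value) and with 2-fold in place of 3-fold. No paired analysis was possible because vehicle and clodronate have 1 library each, and for the same reason no library could be left out. In place of the spread between replicates, a median was taken as moved when it changed by more than 1.5-fold.

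No member was at least 3-fold higher or lower under any alternative that kept the 3-fold threshold. At 2-fold, 1 member (Tlr2) was lower. Of the 97 pathway genes, 6 were higher and 5 lower in place of 2 and 1, as a lower threshold allows by construction. These were no larger shares than over all genes, where 6.95% were higher and 6.77% lower at this threshold. Of the 6 higher pathway genes, 3 belonged to the list of cytosolic sensors. With a pseudocount of 0.1, 3 pathway genes were 3-fold higher, the third being Socs1. The median over the members lay between -0.12 and 0.059, and it was positive only under the correction for GC content and length, as were the surface (0.085) and endosomal (0.047) medians. The same correction turned the median of the transcription factors to -0.12 and that of the induced genes to 0.10. It lowered the median of the list of chaperones, traffic genes and nucleases from 0.14 to 0.011. The log2 ratio of Tlr2 lay between -1.26 and -1.20 under all these alternatives. Of 69 recomputed ratios of single members 8 moved beyond their counting interval, 7 of them under that correction. Taking the highest line changed no member, since each has 1 line. Estimated reads from 133 to 17833 per member limit the precision, and the spread between animals is not known.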

Other observations

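Receptors of the innate response outside the TLR family were measured as well. All 10 genes of the list of cytosolic sensors and their adaptors were higher with clodronate. Their median log2 ratio was 0.48, where all genes had a median of 0.019. Of the 10, 1 was at least 3-fold higher, where 2.86% of all genes tested were. Zbp1, a sensor of Z-form nucleic acids that interferon induces, stood at 18.2 RPKM with vehicle and at 67.6 RPKM with clodronate. Dhx58 and Nod1 were 2.35-fold and 2.83-fold higher, Dhx58 with 6.60 RPKM and 15.5 RPKM and Nod1, a receptor for peptidoglycan fragments, with 2.06 RPKM and 5.84 RPKM. Ddx58, the gene of RIG-I, had 10.4 RPKM and 11.1 RPKM, and Ifih1, the gene of MDA5, had 8.03 RPKM and 9.15 RPKM. The counting interval of the ratio held 1 for Ddx58 (0.935 to 1.21) and for Mavs (0.964 to 1.22). For Ifih1 it ran from 1.001 to 1.30. Under the alternatives the median of this list lay between 0.40 and 0.57.

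Of 5 further receptors with a TIR domain 3 averaged 1 RPKM or more, and all 3 were lower with clodronate, and their median log2 ratio was -0.50. Il1rl2, a subunit of the IL-36 receptor, stood at 7.52 RPKM with vehicle and at 2.85 RPKM with clodronate. Il1r1, the receptor for IL-1, had 3.50 RPKM and 2.18 RPKM, and Il1rap, the shared accessory chain, had 7.46 RPKM and 7.34 RPKM. With no filter on low values the list median was -0.02 over all 5 genes.

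Of the 6 monocyte markers 3 were higher and 3 lower with clodronate. Chil3 stood at 36.4 RPKM with vehicle and at 14.8 RPKM with clodronate, and Ccr2 had 48.5 RPKM and 37.8 RPKM, whereas F13a1 had 132 RPKM and 247 RPKM and Plac8 had 45.4 RPKM and 91.8 RPKM. The part of these cells in the Tlr2 level was not tested.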
